A study of Arabidopsis thaliana with 4 samples.

Results

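The ERF and DREB genes encode plant transcription factors of the AP2/ERF family, and SHL peaks on them were examined here in Arabidopsis thaliana seedlings. The genes were taken by symbol: protein-coding nuclear genes whose symbol starts with ERF, DREB or CBF followed by a number, which gave 33 of 27444 genes in the RefSeq gene table. The symbol rule did not match the family in every case. It leaves out family genes that carry other symbols, so the genes taken are a part of the family. ERF1-1, ERF1-2 and ERF1-3 are genes for eukaryotic release factor 1, which ends translation, and carry the same letters for another name. The other 30 genes are AP2/ERF transcription factors, and counts are given with and without the release factor genes.

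Proteins of this family bind DNA through an AP2 domain. DREB proteins, with the CBF proteins among them, recognise the dehydration-responsive element in genes of cold, drought and heat tolerance, while ERF proteins recognise the GCC box in genes that respond to ethylene, jasmonate and pathogens. Some ERF proteins activate their targets, and others carry an EAR motif and repress them. Many of the genes are expressed at low levels until a stress or hormone induces them.

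SHORT LIFE (SHL) is a chromatin protein whose BAH and PHD domains bind modified histone tails. DNA bound by HA-tagged SHL was immunoprecipitated with an antibody against HA and sequenced in 2 ChIP samples. The plants were whole Col-0 seedlings of about 10 days, grown under 16 h of light and 8 h of dark, with no treatment. All samples had the ebs shl background and carried tagged SHL driven by its native promoter, and 2 input samples from the same plants were not analysed here. No sample without the tag was among the samples used here. The labels do not tell whether the replicates were grown separately, and their likeness may therefore be technical. A whole seedling mixes cell types, so a strong signal in few cells and a weak signal in many cannot be told apart.

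Each ChIP sample had its own list of peaks, and read depth is unknown from such a list. Replicate 1 listed 3668 nuclear peaks with a median score of 39.15, and replicate 2 listed 3487 with a median of 39.89. The score is the authors' own value from their peak caller, and was never below 20 in either list. Since depth is unknown, scores were ranked within a list, and a score minimum was applied to each list by itself. The percentile of a peak is the share of its own list with the same or a lower score. Peaks of low score were often not shared: of the peaks scoring 20 to 25, 28.1% in replicate 1 and 30.4% in replicate 2 overlapped a peak of the other replicate. At scores of at least 100 the shares were 99.6% and 99.8%.

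Peaks of both replicates lay on the body or within 1 kb of 8 of the 33 genes (24.2%, exact 95% interval 11.1 to 42.3). Over all protein-coding genes the share was 8.66%. The 8 were ERF4, ERF8, ERF10, ERF12, ERF13, ERF38, ERF104 and DREB26, and all of them are transcription factor genes, so the count was 8 of 30 without the release factors (26.7%, interval 12.3 to 45.9). In 7 of the 8, all but ERF10, a common region had its midpoint inside the gene body, where a common region is the union of overlapping peaks of both replicates. The share of all protein-coding genes with such a midpoint was 4.58%. The members are short genes, with body lengths from 736 to 2543 bp and a median of 1302 bp against 2078 bp for all genes. Among the 15046 protein-coding genes within that range of lengths, 9.83% had peaks of both replicates on the body or flanks and 5.76% held the midpoint of a common region. No test was run on these shares, because the genes were chosen with results of these data known.

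Replicate 1 had a peak on the body or flanks of 12 members, against 14.8% of all genes, and so did replicate 2, against 14.4% of all genes. The lists differed in which genes they held. Beyond the 8 shared genes, ERF2, ERF14, ERF15 and DREB1A had a peak in replicate 1 alone, and ERF11, ERF71, ERF110 and CBF1 in replicate 2 alone. A peak of exactly 1 replicate was found at 11.8% of all genes. The remaining 17 of the 33 members had no peak of either replicate in this window, a smaller share than the 79.5% of all genes.

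**Figure D1:**
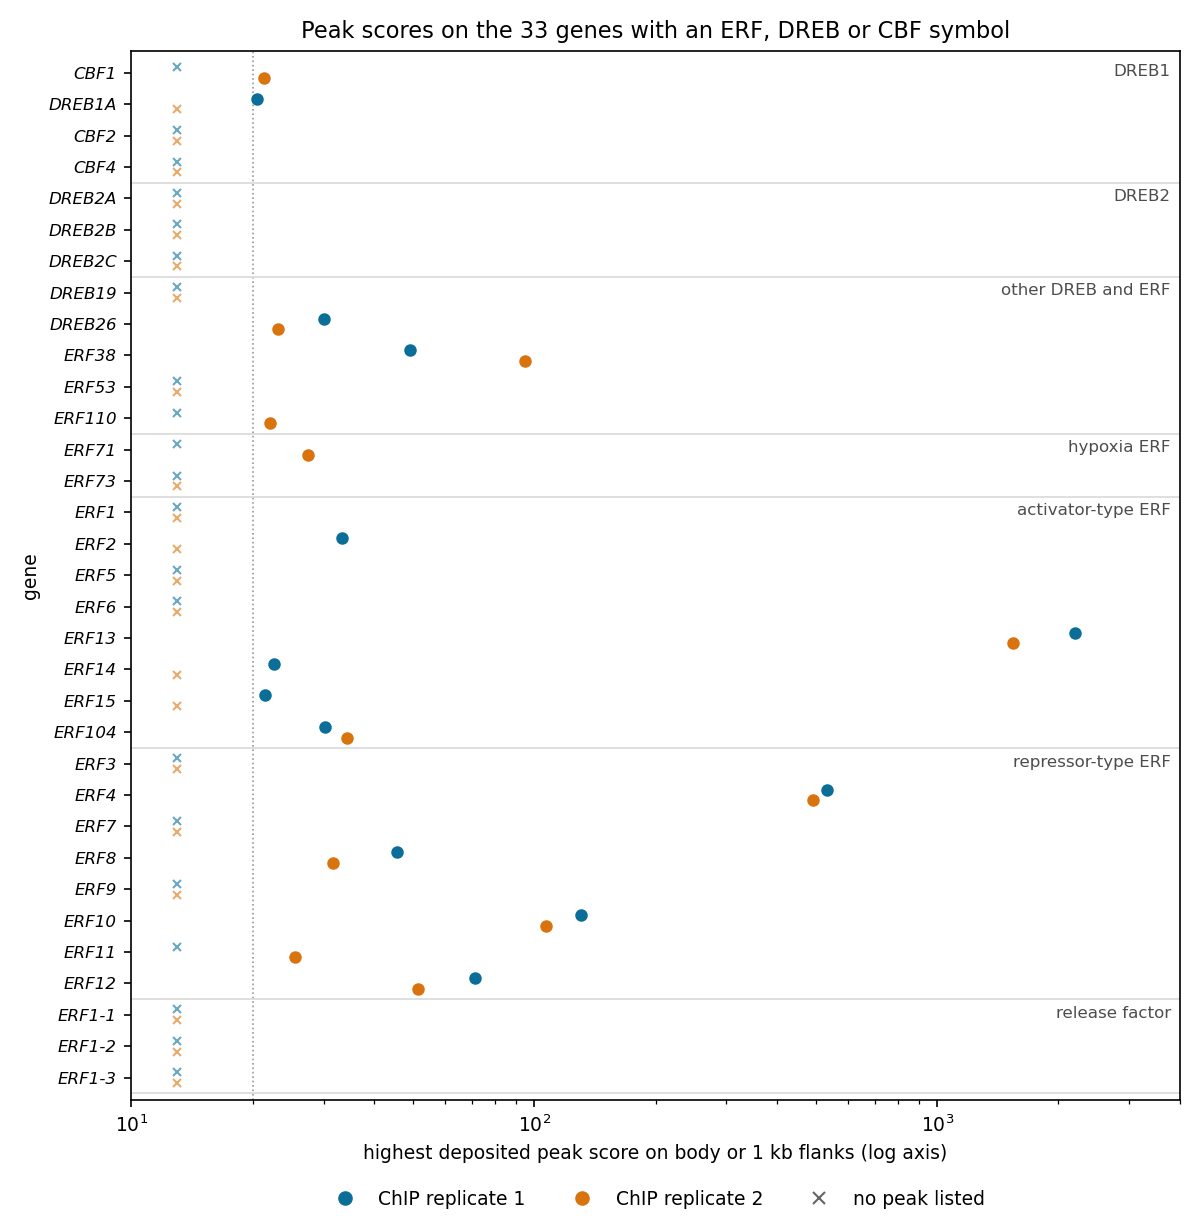
Highest deposited peak score on the body or 1 kb flanks of each of the 33 genes, on a log axis, with replicate 1 in blue and replicate 2 in orange; crosses at the left mark replicates with no peak listed and have no value, and the dotted line is at a score of 20. ERF13, with 2196 and 1543, and ERF4, with 534 and 491, stand to the right of the other genes.

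Repressor-type ERF genes encode proteins with an EAR motif, and 4 of the 8 had peaks of both replicates (exact 95% interval 15.7 to 84.3%), beside 8.66% of all genes. ERF4, a repressor that dampens responses to ethylene and abscisic acid, had a score of 533.94 in replicate 1 and 490.9 in replicate 2, at percentiles of 83.3 and 83. Its common region lay at chromosome 3, 5120892 to 5122603, and covered the whole body. The peaks of the replicates shared 93.4% of the region, so both the place and the rank of the peak were alike in the lists.

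ERF12 had scores of 71.28 and 51.41 at chromosome 1, 9951453 to 9952905, and the replicates shared 96.4% of that region. ERF11, its neighbour on the chromosome 2668 bp away with no protein-coding gene between them, had no peak in replicate 1 and a peak of 25.42 in replicate 2. ERF11 encodes a repressor that acts on genes of ethylene synthesis. These adjacent genes of the same type thus differed in the lists, with peaks of both replicates on 1 and of replicate 2 alone on the other. Of the replicate 2 peaks scoring 25 to 50, only 49.2% overlapped a peak of replicate 1, so a peak in 1 list alone was common at the score of ERF11.

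ERF8, which like ERF4 has been linked to leaf senescence, scored 45.77 in replicate 1 and 31.7 in replicate 2 at chromosome 1, 19821099 to 19822540. ERF10 had the highest scores of the repressor-type genes after ERF4. The peak over its body scored 130.53 in replicate 1 and 66.58 in replicate 2, and both had their midpoint in the ERF10 body but also reached into the next gene, AT1G03810. The common region, at chromosome 1, 956714 to 960808, was 4095 bp wide because replicate 1 had a further peak of 34.67 on the far side, and its midpoint fell in AT1G03810. ERF3, ERF7, which acts in abscisic acid responses, and ERF9 had no peak in either replicate.

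Activator-type ERF genes include regulators of defence downstream of ethylene and jasmonate, and 2 of the 8 had peaks of both replicates (exact 95% interval 3.19 to 65.1%, which holds the 8.66% of all genes). This interval overlaps that of the repressor-type genes. Counted by replicate, 5 activator-type and 4 repressor-type genes had a peak in replicate 1 (14.8% of all genes). In replicate 2 it was 2 and 5 (14.4% of all genes). A difference between the types was not tested. ERF13 had the highest scores of all members, 2195.83 in replicate 1 and 1542.97 in replicate 2, at percentiles of 91.2 and 89.9. Its region, at chromosome 2, 18494621 to 18497442, was 2822 bp wide against a median of 1571 bp for all common regions, and extended past both ends of the 1113 bp body. It also touched a gene for a long non-coding RNA, AT2G09550, but no other protein-coding gene.

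ERF104, whose product is a substrate of the kinase MPK6 in responses to bacterial flagellin, scored far lower, with 30.17 and 34.36 at chromosome 5, 24766182 to 24767597. These were at percentiles of 36.3 and 43.3, and the peaks of the replicates shared 68.1% of the region. The remaining activator-type genes had weak peaks or none. ERF2 had a peak of 33.36, ERF14 a peak of 22.56 and ERF15 a peak of 21.49, each in replicate 1 alone. ERF1, which joins ethylene and jasmonate signals, and ERF5 and ERF6, regulators of defence and of leaf growth under osmotic stress, had none in either replicate. ERF2 and ERF5 lie 6924 bp apart on chromosome 5.

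None of the 4 DREB1 genes had peaks of both replicates (0 of 4, exact 95% upper limit 60.2%). Nor had any of DREB2A, DREB2B and DREB2C (0 of 3, upper limit 70.8%). Both limits are above the 8.66% of all genes. CBF1, CBF2 and DREB1A, also called CBF3, drive cold acclimation and lie next to each other on chromosome 4, with gaps of 1774 bp between CBF2 and DREB1A and 2379 bp between DREB1A and CBF1. In this cluster, DREB1A had a peak of 20.48 in replicate 1 alone and CBF1 a peak of 21.33 in replicate 2 alone. Both were close to the lowest score of their list, at percentiles of 3.08 and 7.51. CBF2 had none. The sources do not tell how reads shared by similar gene copies were placed, and its part in these values was not tested. CBF4, a relative linked to drought, and the DREB2A, DREB2B and DREB2C genes, of which DREB2A regulates heat and drought responses, had no peak in either replicate.

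Of the 5 other DREB and ERF genes, 2 had peaks of both replicates (exact 95% interval 5.27 to 85.3%, which holds the 8.66% of all genes). ERF38 scored 49.1 in replicate 1 and 95.12 in replicate 2 at chromosome 2, 15004827 to 15006340. DREB26 scored 30.02 and 23.17 at chromosome 1, 7696147 to 7697478, at percentiles of 35.9 and 16.4, the lowest ranks of the 8 shared genes. ERF110 had a peak of 22.1 in replicate 2 that overlapped only 1.17% of its body and lay mainly over the neighbouring AT5G50070. DREB19 and ERF53 had none.

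Both hypoxia genes, ERF73 (HRE1) and ERF71 (HRE2), which encode regulators of the response to low oxygen, lacked a peak in replicate 1. In replicate 2, ERF71 had a peak of 20.64 over its body and another of 27.41 beside it, over AT2G47530. The 3 release factor genes had no peak in either replicate, and neither had 79.5% of all genes. For peaks of both replicates the exact 95% upper limit was 70.8%, which holds the 8.66% of all genes.

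The order of the 8 shared genes by score was alike in both lists. Over these 8 genes the rank correlation of the highest scores was 0.952, a description only, since the genes were picked for having a peak in each list. ERF13 and ERF4 led in both, and ERF10 was next, although in replicate 2 its highest peak lay over the neighbouring SOM and the peak on its body, at 66.58, was below that of ERF38. DREB26 was last in both lists, while ERF38 ranked above ERF12 and ERF8 in replicate 2 and between them in replicate 1.

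**Figure D2:**
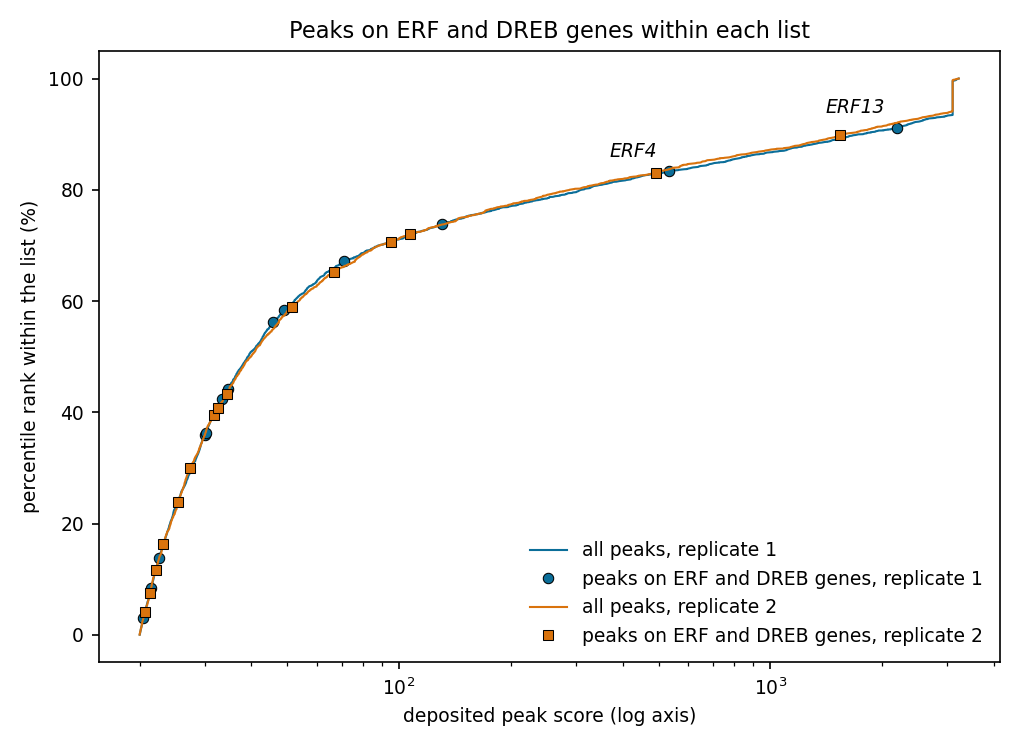
Percentile rank of peaks against their deposited score on a log axis, for all nuclear peaks of each list (lines) and for the 13 peaks of replicate 1 (circles) and 15 of replicate 2 (squares) on the bodies or flanks of the ERF and DREB genes. ERF13 and ERF4 lie above the 80th percentile, and 9 peaks in each list scored under 50.

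Most peaks on these genes were of low score, as were most peaks of the whole lists. Of the 13 peaks in replicate 1, 9 scored under 50, where 58.8% of the whole list did. In replicate 2 it was 9 of 15, against 58.2%. Scores of at least 100 were reached by 3 peaks in each list, where 28.9% of all peaks in each list were at or above that score. Peaks of at least 50 in both replicates were left on 4 members, ERF4, ERF10, ERF12 and ERF13, against 3.74% of all genes. That was 12.1% of the 33 members (exact 95% interval 3.4 to 28.2, which holds the 3.74%). Without the release factors the interval was 3.76 to 30.7%, just above it. Peaks of at least 100 in both were left on 3, without ERF12 (9.09%, interval 1.92 to 24.3, which holds the 2.71% of all genes). At ERF10 the peak of replicate 2 that counted here was one of 106.9 over the neighbouring SOM. The medians of all peaks on the genes were 34.67 in replicate 1 and 32.62 in replicate 2. Over peaks with their midpoint in a member body they were 39.57 and 34.36, so in replicate 1 the side of the list median of 39.15 depended on which peaks were counted. Of the 7 common regions with their midpoint in a member body, 2 scored at least 100 in both replicates (ERF4 and ERF13) and 5 scored under 100 in both. Among all common regions with a midpoint in a protein-coding body, 24.1% scored at least 100 in both replicates.

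Peaks covered most of the gene bodies. Over the 7 genes that held a midpoint, the peaks covered a median of 90.3% of the gene body in replicate 1 and 100% in replicate 2. Coverage was lowest in DREB26, at 74.9% and 68.9%, and complete in both replicates for ERF4 and ERF13. Over all genes that held a midpoint the medians were 68.4% and 74.2%, but these genes had a median length of 1861 bp against 1260 bp for the 7. Among the 366 such genes no longer than the longest of the 7, the medians were 93.7% and 100%, so the cover of the ERF and DREB bodies was near that of other short genes with SHL regions. The 7 regions were 1332 to 2822 bp wide, with a median of 1453 bp.

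Each of the 7 regions touched no other protein-coding gene. Among all 1245 common regions with a midpoint in a protein-coding body, 1014 (81.4%) touched a single protein-coding gene. In replicate 1 the midpoint of the peak lay at -140 bp from the gene centre in ERF4, with minus meaning the lower coordinate, at -187 bp in ERF8, at -230 bp in ERF12 and at -148 bp in ERF104. In DREB26 it lay at -176 bp. In ERF13 and ERF38 it lay on the side of the higher coordinate, at 91 and 128 bp. In replicate 2 the midpoints lay on the same sides, but the distances differed. They were -196 bp in ERF4, -6.5 bp in ERF8, -256 bp in ERF12 and -61 bp in ERF104. In DREB26, ERF13 and ERF38 they were -358, 260 and 34.5 bp. The gene table gives no strand, so whether these sides are the start or the end of the gene was not examined.

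**Figure D3:**
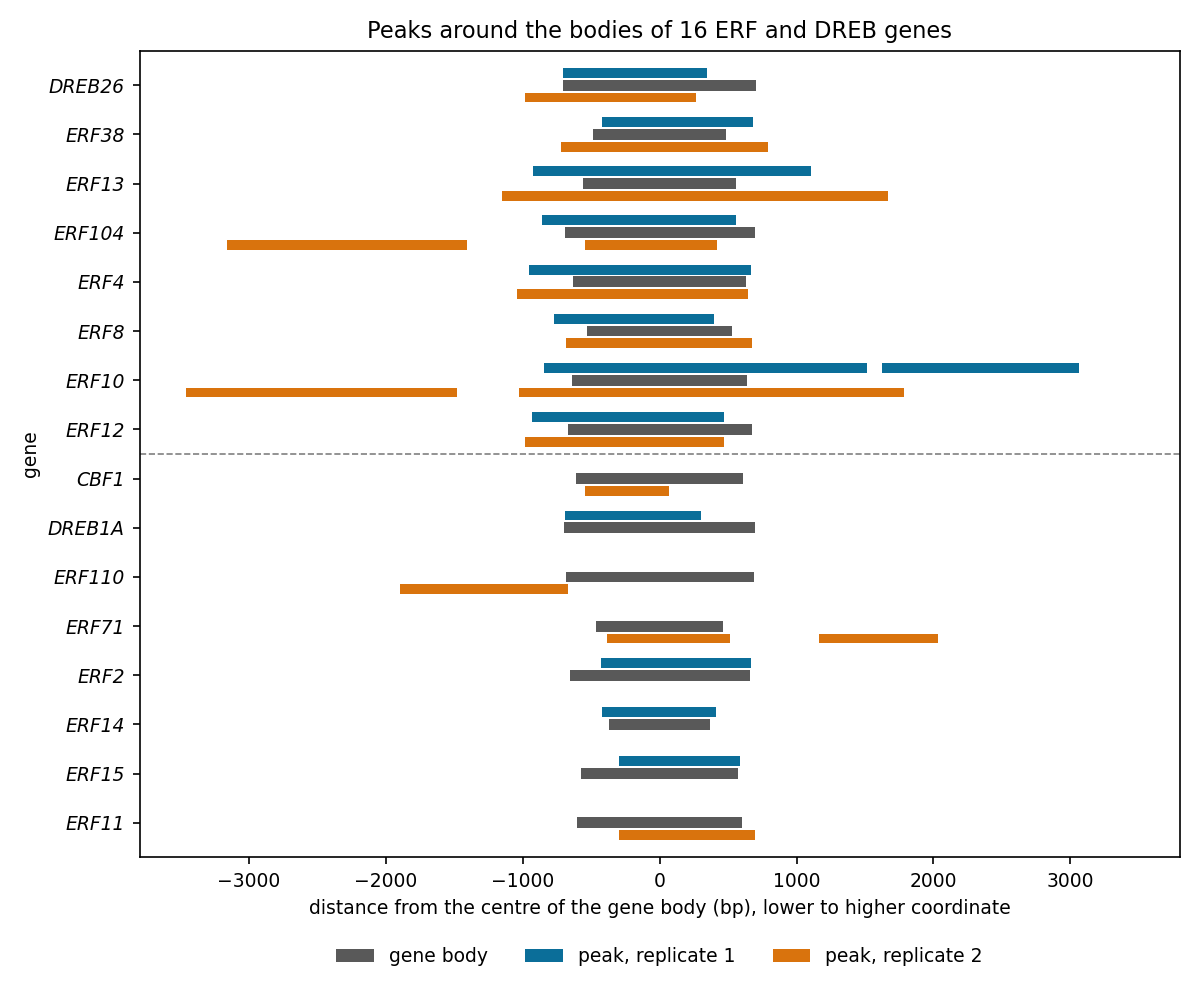
Peaks of replicate 1 (blue) and replicate 2 (orange) drawn to scale around the bodies (grey) of the 16 genes with a peak on the body or 1 kb flanks, as distance in bp from the centre of the gene body. Above the dashed line are the 8 genes with peaks of both replicates, where the peaks of both replicates overlap on the body; below it are the 8 genes with a peak of 1 replicate alone.

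Genes with peaks of 1 replicate alone had scores from 20.48 to 33.36, a range that also holds the ERF104 score of replicate 1, the ERF8 score of replicate 2 and both DREB26 scores. In 7 of these 8 genes the peak lay over the body, as it did in the shared genes, and the exception was ERF110. The nearest peak of the other replicate was 2121 bp to 31000 bp away from the body. For the 17 genes without a peak, the nearest peak of either replicate was 1780 to 31720 bp away, with a median of 6912 bp. The median for all 21819 genes without a peak was 11114 bp. No member lay in a gene-poor window, one with under 50% of the median number of genes: the 1 Mb windows that hold them had 202 to 309 protein-coding genes, against a median of 259 over all windows.

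Genes of the same pathways were counted by the same rule, from lists chosen with earlier results of these data known. Of 27 listed AP2/ERF genes with other symbols, 11 had peaks of both replicates (40.7%, exact 95% interval 22.4 to 61.2), against the 8.66% of all genes. The list does not hold every such gene, so this share describes the listed genes alone. Those named by the highest scores were DDF2, a relative of the CBF genes, with a score of 3100 in both lists at chromosome 1, 23366222 to 23369342, DRN, a regulator of embryo and shoot patterning, with 3134 and 2160 at chromosome 1, 4428958 to 4431807, and HRD, which is linked to drought tolerance, with 226 and 264 at chromosome 2, 15293892 to 15295309. Many peaks share the score of 3100, so the place of DDF2 among them is not resolved. The hypoxia-linked RAP2.2, RAP2.3 and RAP2.12 genes and the defence regulator ORA59 had no peak.

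Genes that respond to cold and drought, many of them targets of the CBF and DREB proteins, were counted next. Of 11 cold and drought response genes, 5 had peaks of both replicates (45.5%, exact 95% interval 16.7 to 76.6), against 8.66% of all genes. With scores of at least 50 in both replicates the count was 0 of 11 (exact 95% upper limit 28.5%, which holds the 3.74% of all genes). COR15A and COR15B, which encode chloroplast proteins that protect membranes in the cold, lie side by side and share 1 region with scores of 96.13 and 49.94, at chromosome 2, 17710329 to 17712340. They count as 2 genes but are 1 observation, which the interval does not take into account. GOLS3, for a galactinol synthase, scored 40.68 and 58.86 at chromosome 1, 3019339 to 3021275. KIN2 and COR47 also had peaks of both replicates. RD29A and RD29B, named after their values were seen, had a peak of 21.53 in replicate 2 alone.

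Among 10 regulators of the CBF genes, MYB15, a repressor of CBF expression in the cold, was the only gene with peaks of both replicates. The share, 10%, was near the 8.66% of all genes. MYB15 scored 21.69 and 22.65 at chromosome 3, 8309625 to 8310910. ICE1, CAMTA3, PIF4 and the rest had none in either replicate.

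None of 14 ethylene signalling genes, from the receptors ETR1 and ERS1 through CTR1 and EIN2 to EIN3 and EIL1, had a peak in either replicate (exact 95% upper limit 23.2%). This limit holds the 8.66% of all genes with peaks of both replicates, and 79.5% of all genes had no peak of either, so the count of 0 is not apart from the background. Of 10 ethylene synthesis genes, 2 had peaks of both replicates (20%, exact 95% interval 2.52 to 55.6, which holds the 8.66% of all genes). Both encode enzymes that make the ethylene precursor. With scores of at least 50 in both replicates the count was 0 of 10. Its exact 95% upper limit of 30.8% holds the 3.74% of all genes at that minimum. ACS8 scored 36.46 and 54.25 at chromosome 4, 17752066 to 17754164, and ACS4 scored 38.62 and 30.36 at chromosome 2, 9717811 to 9719659. Of 4 defence genes that respond to ethylene and jasmonate, CHIB, for a basic chitinase, had peaks of 58.99 and 76.49 at chromosome 3, 3962015 to 3964494, while PDF1.2, PDF1.2b and PR4 had none. The exact 95% interval of this share of 25% was 0.631 to 80.6%, which holds the 8.66% of all genes.

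Other families of plant transcription factors were counted by symbol for comparison. Peaks of both replicates lay on 16 of 67 WRKY genes (23.9%), 10 of 120 MYB genes (8.33%) and 5 of 79 NAC genes (6.33%). The share over all protein-coding genes was 8.66%. The exact 95% interval of the ERF and DREB genes without release factors, 12.3 to 45.9%, holds the WRKY share. The MYB and NAC shares lie below this interval. It overlaps the intervals of all 3 families, which were 14.3 to 35.9% for WRKY, 4.07 to 14.8% for MYB and 2.09 to 14.2% for NAC. The MYB and NAC intervals hold the 8.66% of all genes. Differences between families were not tested. The ERF and DREB genes counted here are only those with such a symbol, so their share is not that of the whole family.

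**Figure D4:**
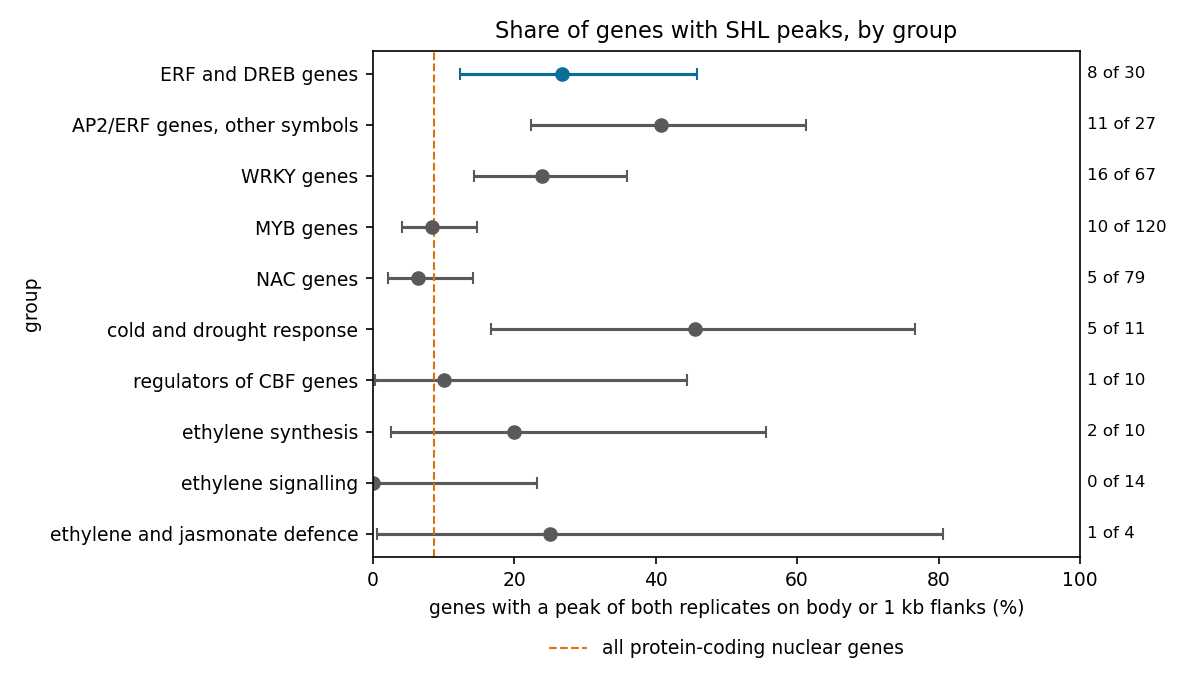
Share of genes with peaks of both replicates on the body or 1 kb flanks, in percent, with exact 95% intervals for counting error and the number of genes at the right. Blue marks the 30 transcription factor genes with an ERF, DREB or CBF symbol, and grey marks related lists and other families. The dashed line is the share of all protein-coding nuclear genes, 8.66%.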

How the data were processed

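ChIP-seq peak lists of 2 samples were used, 1 list per ChIP sample, so peaks were called per sample. The submitters' processing notes name the tools Bowtie2 2.2.8, SAMtools 1.3 and MACS 1.4 and the build TAIR10; caller settings, filters and control are not given in the sources used here. Each peak has a deposited score, a value of the authors' peak caller. MACS 1.4 conventionally writes -10 times the log10 of a p-value as this score, but no file header says so. Read depth is unknown, and intervals cover counting error only.

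Gene positions came from the RefSeq table of assembly TAIR10.1. Whether positions match TAIR10 was checked from the data: 57.0% of common region midpoints lay in protein-coding bodies, against 29.0% and 29.8% after shifts of -1500 and 1500 bp. Gene coordinates are not printed. The table has no strand or sequence, so the planned counts of promoter and protein motifs and distances to gene starts were not run, and no sequence is shown.

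Peaks on the 5 nuclear chromosomes were assigned to a gene by an overlap of at least 1 bp with the body or 1 kb flanks (Python 3.11.15, pandas 2.3.3, scipy 1.17.1), with functions tested on simulated data. Intervals are Clopper-Pearson. Members and lists were chosen with earlier results of these data known, and the classes of members from textbook knowledge. Members with a peak of both replicates were named with both scores; from each list up to 3 genes with the highest lower percentile were named, and other names were added after their values were seen. All 76 list genes were found by locus identifier; HRE1 and HRE2 are members and were not counted again. No statistical test was run. Alternatives changed the overlap, score minimum, flank, midpoint rule and replicates used.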

Additional observations from a re-analysis of the deposited data

How the results depend on the processing

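No paired analysis was possible because the counts come from no test and the ChIP samples alone had peak lists among the files used here. Both the score minimum and the use of a single list moved the counts, and the shares over all protein-coding genes moved too. With scores of at least 50 in each replicate, 4 genes had peaks of both replicates on the body or flanks and 4 held the midpoint of a common region in the body (3.74% and 1.7% of all protein-coding genes). With scores of at least 100 the counts were 3 and 2 (2.71% and 1.12% of all genes); fewer peaks enter by construction. Leaving out a replicate gave 12 genes with a peak on the body or flanks in either case (14.4% to 14.8% of all genes), and 11 to 12 with a peak midpoint in the body (7.96% to 8.45%). The count of 8 genes on body or flanks stayed at 8 for the body alone (5.86% of all genes), flanks of 500 bp (7.08%), peak midpoints in the window (6.57%), a reciprocal overlap of 50% (7.01%) and without the release factor genes, and was 9, with DREB2C added, for flanks of 2 kb (11.7%). The count of 7 genes with a midpoint became 8, with ERF10 added, for any overlap with the body (6.28% of all genes), for intersections of the peaks (4.75%) and for a reciprocal overlap of 50% (3.96%). Over peaks with their midpoint in a member body the median score was 39.565 in replicate 1 and 34.36 in replicate 2. On the body alone the highest score in replicate 2 was 66.58 for ERF10, as a peak of 106.9 lies over the neighbouring SOM, and 20.64 for ERF71. Depth limits the absence of a peak: it says only that none was listed.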

Other observations

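Genes beside ERF10 and ERF104 also carried SHL peaks of both replicates. The neighbours of all members were not counted, so no share is given. Next to ERF10, peaks that scored 83.39 in replicate 1 and 106.9 in replicate 2 formed a common region over SOM (chromosome 1, 954058 to 956259), which encodes a CCCH zinc finger protein that represses seed germination in the dark. Next to ERF104, peaks of 30.26 and 32.62 formed a region (chromosome 5, 24763877 to 24765630) whose midpoint fell in AT5G61590 and which touched PFK4, for a phosphofructokinase. AT5G61590 is DEWAX, itself an ERF-type transcription factor gene, which represses wax synthesis and has no ERF symbol in the gene table. Near ERF1, the nearest peaks were 4824 bp away in replicate 1 and 5132 bp in replicate 2. These genes were picked after their values were seen.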
